A study of Homo sapiens with 8 samples.

Results

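The genes described here are 10 genes of the unfolded protein response, HSPA5, HSP90B1, DDIT3, ATF4, ATF6, XBP1, ERN1, HERPUD1, CALR and PDIA4, of the 20033 protein-coding genes that GENCODE 44 places on chromosomes 1 to 22, X and Y. They were chosen by name, and a peak of open chromatin was assigned to a gene when its summit lay in the gene body or within 20 kb of it. By this rule 50 of the 60628 peaks of the list belonged to the 10 genes, and no peak belonged to more than 1 of them. The cells were HepG2, an established liver tumour line that the labels call a hepatocellular carcinoma and the study a hepatoblastoma, of wild-type genotype, fixed with 0.1% formaldehyde (FA) for a few minutes and then cryopreserved. Bulk ATAC-seq, in which the transposase Tn5 cuts DNA where chromatin is accessible, covered 8 libraries of these cells, 1 per pairing of an FA level (0.1, 0.5, 1.0 or 5.0%) and a freezing method (cryopreserved or flash-frozen), to find a fixation and freezing protocol that keeps the signal of fresh cells. The peak list of the library with 0.1% FA and cryopreservation was analysed here. No replicate of this library and no other condition was analysed, so each value below describes 1 library. The labels name no stress treatment of these cells.

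The unfolded protein response is started when misfolded proteins gather in the endoplasmic reticulum (ER). Its sensors sit in the ER membrane and pass the signal to transcription factors, which raise the production of chaperones, folding enzymes and the machinery that removes misfolded proteins. Liver cells secrete much protein and use this system also in the absence of disease. The factors ATF6 and XBP1 act on the ER stress response element (ERSE) in promoters of ER chaperone genes, together with the general factor NF-Y, which binds its CCAAT end. ATF4 acts on C/EBP-ATF response elements (CARE) of stress genes.

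The labelled cell type was checked first. Of 10 hepatocyte genes 7 had a peak at the transcription start site (TSS), ALB, AFP and FGB being those without one, and of 3 blood genes and 3 endothelial or stromal genes 0 had one. Of all protein-coding genes 61.5% had a TSS peak, a share near that of the hepatocyte genes. So few genes do not settle the cell type.

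The promoters of 5 of the 10 genes held an exact ER stress element within 300 bases upstream of the TSS, and these sequences are shown because few other genes have them. The ERSE is CCAAT, 9 bases of any kind and CCACG, and the ERSE-II is ATTGG, 1 base of any kind and CCACG. Both strands were searched in the hg38 sequence, and positions are counted upstream from the TSS of the canonical transcript. The 6 exact matches follow, each written 5′ to 3′ on the strand on which the motif reads, with the letters fixed by the motif in capitals and the free bases in lower case.

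HSPA5 ERSE, chr9:125241391-125241409, bases 66 to 48 upstream, same strand as the gene: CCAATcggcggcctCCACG
HSP90B1 distal ERSE, chr12:103930216-103930234, bases 194 to 176 upstream, same strand as the gene: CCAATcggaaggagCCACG
HSP90B1 proximal ERSE, chr12:103930321-103930339, bases 89 to 71 upstream, strand opposite to the gene: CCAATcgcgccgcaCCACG
XBP1 ERSE, chr22:28800603-28800621, bases 52 to 34 upstream, same strand as the gene: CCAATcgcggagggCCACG
CALR ERSE, chr19:12938384-12938402, bases 225 to 207 upstream, strand opposite to the gene: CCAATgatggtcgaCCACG
HERPUD1 ERSE-II, chr16:56932025-56932035, bases 117 to 107 upstream, same strand as the gene: ATTGGgCCACG

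ERSE letters were found upstream of HSPA5, HSP90B1, XBP1 and CALR, 4 of the 10 genes, and upstream of 22 of all 20033 protein-coding genes, which is 0.110% of them. HERPUD1 was the 1 member with ERSE-II letters, which 16 protein-coding genes or 0.0799% held. Either element was present in 5 of the 10 genes and in 38 protein-coding genes, a share of 0.190%. HSP90B1 alone among the members carried 2 exact elements. These counts describe letters in the reference genome and not binding of a factor. The ERSE is already known from promoters of ER chaperone genes, so finding it at such genes is no independent result.

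All 6 elements lay inside the TSS peak of their gene. This follows largely from the window, since the peaks of HSPA5, HSP90B1 and CALR spanned all 300 bases of it. Every CCAAT box (CCAAT) and GC box (GGGCGG) in the windows of these genes, XBP1 and HERPUD1 also lay inside the peak. The summit, the point of highest signal, was 7 bp from the centre of the XBP1 element and 6 bp from that of the HERPUD1 element. The CALR summit was 72 bp away, that of HSP90B1 123 and 228 bp from its 2 elements and that of HSPA5 169 bp away. Plain boxes lay as near to summits, at 5 bp for a CCAAT box of PDIA4 and 5.5 bp for a GC box of HSPA5. Such closeness was thus not particular to the ER stress elements. Whether read ends were shifted to the Tn5 cut is not known, so the distances are not exact to a few bp. The sequences upstream of the 4 genes for which the window could be printed are given next on the strand of the gene, 5′ to 3′, in hg38, with the whole element in capitals. Bases that are a UTR of some annotated transcript are left out, which is why the HSPA5 and XBP1 stretches stop short of the TSS and why HSP90B1 has no line.

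HSPA5, chr9:125241383-125241643, minus strand: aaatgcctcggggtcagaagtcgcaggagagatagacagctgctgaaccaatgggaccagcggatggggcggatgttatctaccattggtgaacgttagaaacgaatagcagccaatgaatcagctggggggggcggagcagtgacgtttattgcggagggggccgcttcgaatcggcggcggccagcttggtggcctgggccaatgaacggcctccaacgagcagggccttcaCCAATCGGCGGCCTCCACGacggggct
XBP1, chr22:28800598-28800869, minus strand: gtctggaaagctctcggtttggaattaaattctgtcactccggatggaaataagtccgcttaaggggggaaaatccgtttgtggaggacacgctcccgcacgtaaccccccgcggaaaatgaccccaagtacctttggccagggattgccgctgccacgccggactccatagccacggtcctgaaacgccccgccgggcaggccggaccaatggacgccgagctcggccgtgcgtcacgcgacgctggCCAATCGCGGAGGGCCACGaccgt
HERPUD1, chr16:56931842-56932141, plus strand: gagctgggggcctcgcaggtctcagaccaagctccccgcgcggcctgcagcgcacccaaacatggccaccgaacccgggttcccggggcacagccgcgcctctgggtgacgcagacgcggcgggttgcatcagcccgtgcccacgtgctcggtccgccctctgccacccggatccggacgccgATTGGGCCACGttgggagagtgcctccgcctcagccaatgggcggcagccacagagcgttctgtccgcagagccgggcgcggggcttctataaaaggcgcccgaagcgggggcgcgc
CALR, chr19:12938309-12938608, plus strand: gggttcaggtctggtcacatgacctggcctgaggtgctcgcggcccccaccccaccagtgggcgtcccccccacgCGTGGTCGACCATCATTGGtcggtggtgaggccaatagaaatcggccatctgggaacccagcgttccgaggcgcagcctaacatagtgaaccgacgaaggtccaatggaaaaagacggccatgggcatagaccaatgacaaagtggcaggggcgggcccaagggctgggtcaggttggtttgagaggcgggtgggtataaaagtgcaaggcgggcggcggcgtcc

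The CALR element reads on the opposite strand, so its capitals begin with the complement of the CCACG end. DDIT3, ATF4, ATF6, ERN1 and PDIA4 had no exact ERSE or ERSE-II in the window. When 1 mismatch was allowed among the 10 fixed letters of the ERSE, 1.88% of protein-coding genes matched and DDIT3 and PDIA4 were added to the members with an element. DDIT3 had a pair of such matches on opposite strands that overlapped each other. HSP90B1, at bases 154 to 136 and 233 to 215 upstream, and HERPUD1, at bases 83 to 65, held near matches beside their exact elements. The near matches of DDIT3 and PDIA4, which have no exact one, are shown with the mismatched letter in lower case.

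DDIT3 near ERSE, chr12:57520596-57520614, bases 100 to 82 upstream, same strand as the gene: CCAATgccggcgtgCCACt
DDIT3 near ERSE, chr12:57520586-57520604, bases 90 to 72 upstream, strand opposite to the gene: CCAATcagaaagtggCACG
PDIA4 near ERSE, chr7:149028741-149028759, bases 254 to 236 upstream, strand opposite to the gene: CCAATcagcggctgCCACt

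The CCAAT box, which forms 1 end of every ERSE and, read on the other strand, of every ERSE-II, was upstream of 8 of the 10 genes against 37.9% of protein-coding genes. The GC box GGGCGG was also upstream of 8, against 60.8%. The XBP1 response letters TGACGTGG (UPRE, 0.769% of protein-coding genes) and the cyclic AMP element TGACGTCA (CRE, 2.58%) were upstream of 0 members. CARE letters, TGATG, 1 base of any kind and AA, were upstream of HERPUD1 at bases 176 to 169, and 2.65% of protein-coding genes had them. DDIT3, a target of ATF4, had CARE letters at bases 306 to 299 upstream, most of which lay outside the window and all of which lay outside the DDIT3 peak. ATF6 stood apart in base composition, with 43.7% GC in the 300 bases upstream against a median of 64.0% over the 10 genes and 65.0% over protein-coding genes having a TSS peak. Its upstream stretch is shown for contrast with the 4 above, in lower case throughout since it held 0 of the 7 motifs.

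ATF6, chr1:161766020-161766297, plus strand: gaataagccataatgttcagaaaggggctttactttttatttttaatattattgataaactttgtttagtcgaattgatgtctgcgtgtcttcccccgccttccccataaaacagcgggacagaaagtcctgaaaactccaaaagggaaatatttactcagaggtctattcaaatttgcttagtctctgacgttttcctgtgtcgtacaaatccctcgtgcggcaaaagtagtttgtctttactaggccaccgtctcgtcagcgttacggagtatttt

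**Figure D1:**
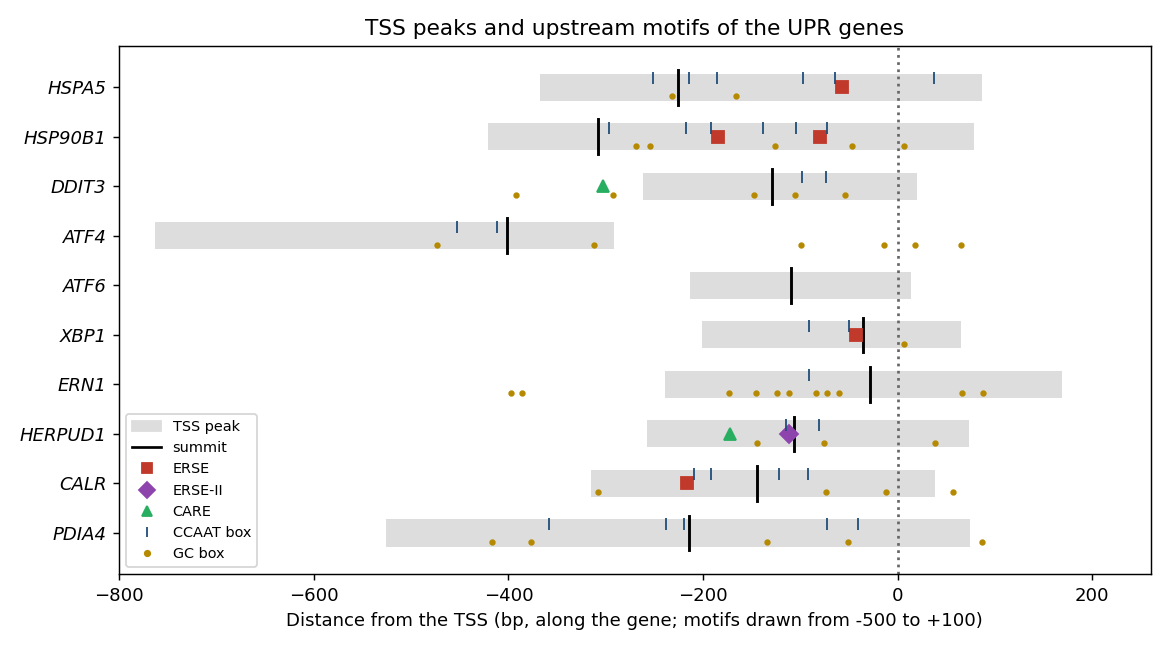
Each row is 1 gene, drawn along the gene with the TSS at 0 (bp). Grey bars are the TSS peaks, black lines their summits, and symbols the motif matches from 500 bp upstream to 100 bp downstream. All 10 summits lie upstream of the TSS, and the red squares (ERSE) and the purple diamond (ERSE-II) lie inside the grey bars.

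Each of the 10 genes had a peak at its TSS, meaning a peak that overlapped the 1000 bp to either side of it. The same was true of 61.5% of protein-coding genes. A summit in the gene body or within 20 kb of it, also found for all 10, was found for 88.3% of protein-coding genes. The fold enrichment of a peak is its fragment pileup at the summit over the local background, both raised by 1 count, as the peak caller MACS2 computes it. Fragment numbers were solved from the fold and p-value of each peak under that formula, which was assumed. They gave whole numbers for 50 of 50 member peaks within 0.01, and they set the exact Poisson 95% intervals printed beside the folds, which cover counting error only. The peak names point to an alignment labelled as filtered and short, so the fragments may be the short ones of the library alone. Whether whole fragments or read ends were counted is not known, and the word fragment stands for either. If both ends of a fragment were counted, the intervals are too narrow.

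Across the 10 genes the median fold at the TSS was 18.5, with a range of 14.9 to 25.9, against a median of 17.9 and quartiles of 13.0 and 22.8 over the 12313 protein-coding genes that had such a peak. The height of the 10 peaks was thus within the usual range, with 7 of 10 above the median, 1 above the upper quartile and 0 below the lower one. Their width was larger, with a median of 381.5 bp against 278 bp and 8 of 10 peaks wider than that median. All 10 summits lay upstream of the TSS, as did those of 84.0% of protein-coding TSS peaks, at a median of 136.5 bp upstream against 71.0 bp. The summits rested on 25 to 119 fragments with a median of 65.5, more than the median of 43 at protein-coding TSS peaks.

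**Figure D2:**
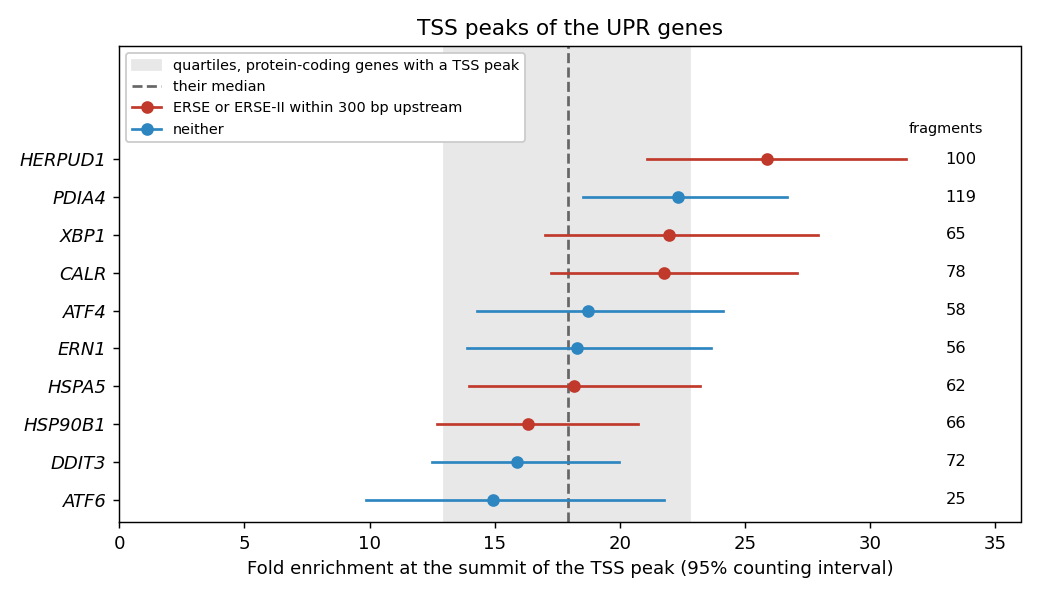
Fold enrichment at the summit of the TSS peak of each gene (horizontal axis, linear) with its exact 95% counting interval as a line, and the number of fragments at the summit at the right. The grey band and dashed line are the quartiles (13.0 and 22.8) and median (17.9) over all protein-coding genes having such a peak. Intervals of neighbouring genes overlap throughout, from HERPUD1 at 25.9 down to ATF6 at 14.9.

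The sensors of the list are ERN1 and ATF6. ERN1 encodes IRE1, the kinase and nuclease that splices XBP1 mRNA, and its TSS peak (chr17:64129975-64130383) had a fold of 18.3 (13.9 to 23.6) from 56 fragments, with the summit 28 bp upstream of the TSS. The start of the noncoding gene ENSG00000289957 lay at the same peak. ERN1 had 10 peaks in all, the most of the 10 genes and more than 94.0% of protein-coding genes had. Its gene and flanks were also long, at 131.7 kb, and per 100 kb ERN1 had 7.59 peaks, fewer than ATF4 (16.3), XBP1 (15.2), HERPUD1 (13.3) and CALR (10.9). Of these, 6 lay in its introns. The intron 1 peak, 9.76 kb downstream of the TSS, had a fold of 8.51, and the 3 peaks of intron 2, at 45.4, 47.9 and 48.2 kb, had folds of 10.5, 6.08 and 9.87. The peaks at 47.9 and 48.2 kb were near the start of another annotated transcript. The intron 5 peak at 55.2 kb reached 10.3 and the intron 10 peak at 66.2 kb reached 12.4. The folds of all 6 intronic peaks of ERN1 were thus below that of its TSS peak. The counting interval of the highest of them, 7.37 to 19.6 in intron 10, nevertheless overlapped that of the TSS peak. A peak between genes, 104 kb downstream of the TSS and beyond the 3′ end of ERN1, had a fold of 19.6. On the upstream side, a peak at 15.7 kb lay at the starts of the noncoding genes SNHG25 and SNORD104 (fold 17.6) and a peak at 20.3 kb lay in the body of TEX2 (15.8).

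ATF6 encodes the membrane-bound sensor that is cut in the Golgi to release a transcription factor. Its TSS peak (chr1:161766107-161766334) was the lowest and narrowest of the 10, with a fold of 14.9 (9.86 to 21.8) and a width of 228 bp. It also had the fewest fragments at the summit, 25, over the lowest local background, 0.742 fragments. The divergent noncoding gene ATF6-DT starts at the same peak. ATF6 is the longest of the 10 genes, and its body held 1 further peak, in intron 9 at 66.4 kb from the TSS, with a fold of 19.2 from 29 fragments. The other 2 peaks, 16.6 and 16.1 kb upstream with folds of 25.7 and 10.4, lay at the start of DUSP12.

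The transcription factors of the list are XBP1, ATF4 and DDIT3. XBP1 encodes the factor whose spliced form acts on ER chaperone and degradation genes, and its TSS peak (chr22:28800504-28800770) had a fold of 21.96 (17.0 to 27.9) from 65 fragments, with the summit 36 bp upstream and inside its ERSE. XBP1 had 7 peaks. The highest of them had a fold of 26.7 (20.4 to 34.4) and lay 16.3 kb downstream of the XBP1 TSS in the body of CCDC117. It was 11.6 kb from the start of that gene and 11.0 kb from the nearest annotated transcript start. Its fold was also the highest of all 50, but its interval overlapped that of the next, 26.2 (20.2 to 33.3) at the start of MIEF1. Upstream of XBP1, a peak at 13.4 kb lay at the start of the noncoding gene ENSG00000272858 (fold 21.0), and 4 weaker ones at 1.79, 8.46, 10.7 and 19.1 kb had folds of 5.36 to 9.72. Which gene such peaks act on is not shown by their position.

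ATF4 encodes the factor made when the sensor kinase PERK slows translation. Its TSS peak (chr22:39519799-39520271) had a fold of 18.7 (14.3 to 24.1) from 58 fragments. The ATF4 summit lay farthest from its TSS of all 10, 401 bp upstream, and the peak ended short of the TSS, other ATF4 transcripts being annotated to start farther upstream. Of its other 6 peaks, 1 was at the start of MIEF1 18.3 kb upstream (fold 26.2) and 1 at the start of RPS19BP1 12.4 kb downstream (13.2). The remaining 4 had folds of 5.94 to 8.07.

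DDIT3 encodes CHOP, a factor induced in prolonged stress. Its TSS peak (chr12:57520494-57520776) had a fold of 15.9 (12.5 to 19.96) from 72 fragments, with the summit 129 bp upstream. The protein-coding gene ENSG00000285133 starts within reach of this peak. Its other peaks were at the start of MBD6, 2.30 kb upstream with a fold of 6.79, and in the body of MARS1, 23.6 kb downstream with a fold of 7.74. DDIT3 was thus the member with the second lowest TSS fold and no other peak above 8.

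The ER chaperones and folding enzymes are HSPA5, HSP90B1, CALR and PDIA4. HSPA5 encodes BiP, the main ER chaperone, which also holds the sensors inactive. Its TSS peak (chr9:125241256-125241711), shared with the divergent noncoding HSPA5-DT, had a fold of 18.2 (13.98 to 23.2) from 62 fragments and a width of 456 bp. This was the only peak in or within 20 kb of HSPA5, and 11.7% of protein-coding genes had fewer. The HSPA5 window also held 5 CCAAT boxes, of which 1 belonged to the ERSE.

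HSP90B1 encodes GRP94, the ER member of the HSP90 family. Its TSS peak (chr12:103929989-103930489) had a fold of 16.3 (12.7 to 20.7) from 66 fragments over 501 bp, with the summit 308 bp upstream. The microRNA gene MIR3652 starts at the same peak, which also lies in the body of the pseudogene TTC41P. Further peaks were at the starts of UQCC6 (26.8 kb downstream, fold 14.6) and TDG (35.4 kb, fold 24.4), so that HSP90B1 had 0 peaks in its introns.

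CALR encodes calreticulin, a calcium-binding chaperone of glycoproteins. Its TSS peak (chr19:12938294-12938647) had a fold of 21.7 (17.2 to 27.1) from 78 fragments, 144 bp upstream. Its other peaks included those at the starts of FARSA, 4.83 kb upstream (fold 10.9), and of GADD45GIP1, 18.6 kb downstream (17.5).

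PDIA4 encodes a protein disulfide isomerase that forms and rearranges disulfide bonds. Its TSS peak (chr7:149028431-149029031) was the widest, at 601 bp, and held the most fragments, 119, over the highest local background, 4.38. The fold was 22.3 (18.5 to 26.7). Width put it above 96.7% of protein-coding TSS peaks, while its fold was above 73.0% of them. A weaker peak lay in intron 7 at 20.8 kb (fold 8.97) and another at the starts of the noncoding RNY1 and GHET1, 41.0 kb downstream (17.5).

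HERPUD1 encodes a membrane protein of ER-associated degradation. Its TSS peak (chr16:56931884-56932215) was the highest, with a fold of 25.9 (21.1 to 31.4) from 100 fragments and the summit 106 bp upstream, above 87.1% of protein-coding TSS peaks. HERPUD1 was also the 1 member with a second peak within reach of its TSS, in intron 1 at 938 bp downstream, with a fold of 5.12 from 19 fragments, the lowest of the 50. Around it lay 4 peaks between genes, at 12.7 and 9.50 kb upstream (folds 12.3 and 17.8) and 17.3 and 19.3 kb downstream (13.5 and 5.24), and 1 in the body of CETP, 32.6 kb downstream (6.25).

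Setting the 10 folds in order, from HERPUD1 through PDIA4, XBP1, CALR, ATF4, ERN1, HSPA5, HSP90B1 and DDIT3 to ATF6, the intervals of all 9 neighbouring pairs overlapped. Of the 45 possible pairs, 2 had intervals apart from each other, HERPUD1 against HSP90B1 and HERPUD1 against DDIT3. The 5 genes with an ERSE or ERSE-II had a median fold of 21.7 at the TSS and the 5 without one 18.3, with values of both sets interleaved. HSPA5 and HSP90B1, which carry an element, were below ATF4 and ERN1, which do not.

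Away from the 11 peaks at their own TSS, the 10 genes had 39 peaks with a median fold of 10.7. Of these, 11 lay at the TSS of another coding gene (median 14.6), 3 at the TSS of noncoding genes only (17.6), 8 in the body of a member itself (10.1), 10 in the body of another gene (7.90) and 7 between genes (12.3). The 8 intragenic ones belonged to ERN1 (6), ATF6 (1) and PDIA4 (1), the other 7 genes having none. The median number of peaks was 4.5 a gene against 4 for protein-coding genes, and the pooled density was 6.31 against 3.75 peaks per 100 kb of gene and flanks. Pooling weighs long genes most, and per member the density ran from 1.59 (ATF6) to 16.3 (ATF4). The 25 peaks that lay away from any canonical TSS had a median fold of 8.97 and width of 150 bp, against 9.80 and 158 bp for the 43340 such peaks of the list.

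**Figure D3:**
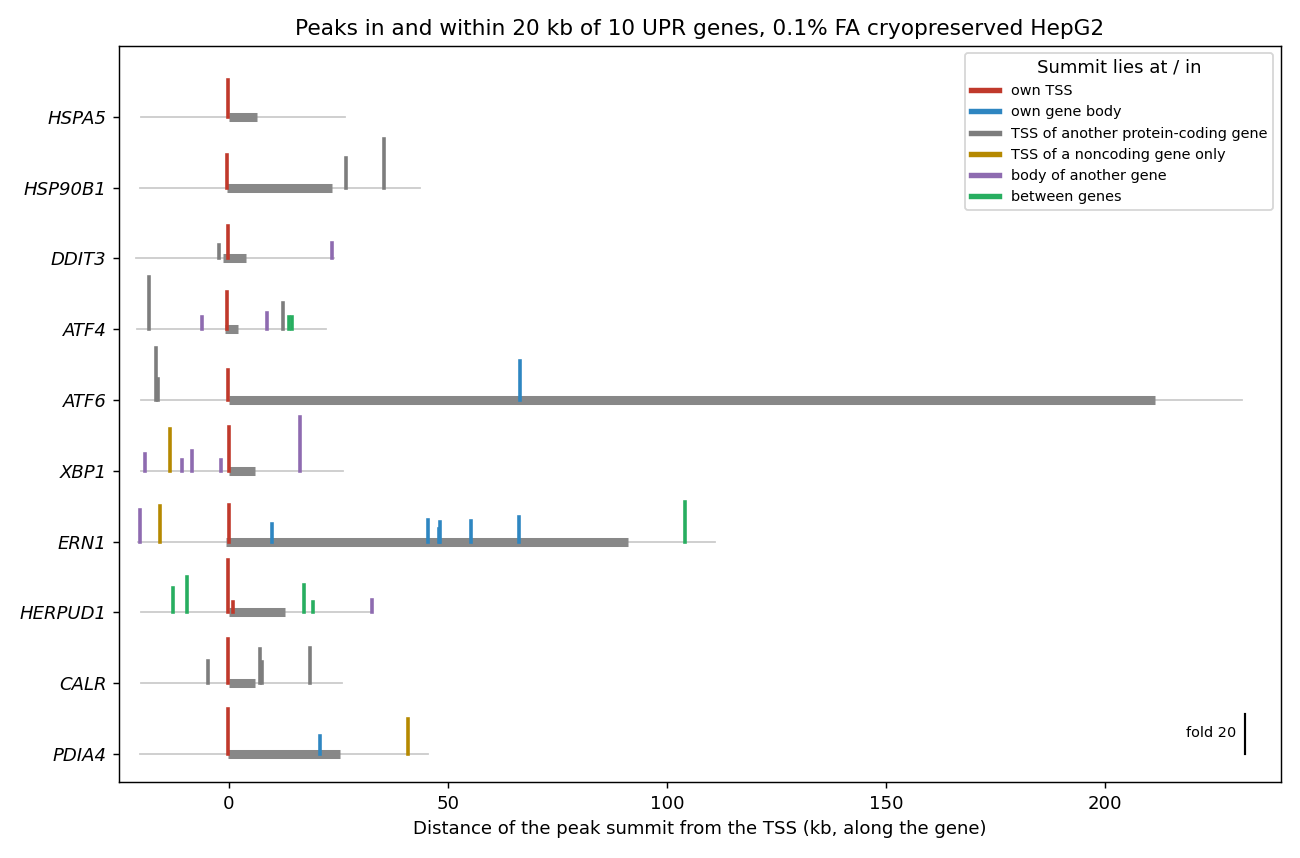
Each row is 1 gene, drawn along the gene with the summit position from the TSS on the horizontal axis (kb). The thick grey bar is the gene body and the thin line the 20 kb to either side, and each vertical line is a peak whose height is its fold (scale bar, fold of 20) and whose colour is where its summit lies. HSPA5 has 1 peak and ERN1 10, of which 6 (blue) lie in its body.

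Within 100 bp of these 25 summits, ERSE, ERSE-II, UPRE and CRE letters were found 0 times, and CARE letters once, at the ERN1 peak 47.9 kb downstream (4.06% of such peaks of the list). Of 5 further motifs, chosen after the data had been seen, the forkhead letters TGTTTAC were near 3 summits (9.16% of the list's), those of ATF6 intron 9, of ERN1 intron 2 at 45.4 kb and of HERPUD1 at 17.3 kb downstream. AP-1 letters TGACTCA were near 2 (8.66%), ERN1 intron 1 and the same HERPUD1 peak, and CTCF letters AGGGGGCGC near 1 (1.40%), the CETP peak of HERPUD1. HNF4A and C/EBP letters were near 0 of them.

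The wider pathway was described with 36 other genes of the response. Of these, 33 had a TSS peak (91.7%, exact binomial 95% interval 77.5 to 98.2), against 61.5% of protein-coding genes. The 36 genes were picked with earlier results of these data known and are no random sample. The interval therefore allows no inference about the pathway. Their median fold was 21.3 with a range of 7.93 to 34.1, and their median width 365 bp. By role, 13 of 13 ER chaperones and folding enzymes had a TSS peak (median fold 20.9), 7 of 8 sensors and regulators (22.3), 6 of 7 genes of degradation and translocation (21.9) and 7 of 8 targets of PERK, ATF4 and CHOP (16.9). The 3 genes without one were ERN2, a homologue of ERN1 known from gut epithelium (nearest summit 12.5 kb away, fold 7.56), DERL3, of ER-associated degradation (10.7 kb, 15.1) and CHAC1, which degrades glutathione (11.5 kb, 15.1). The highest folds were at the co-chaperone DNAJC3 (34.1), the protease gene MBTPS1 whose product cuts ATF6 (30.3), the co-chaperone DNAJB9 (27.8) and SESN2 (27.3). The lowest were at MBTPS2, whose product makes the second cut of ATF6 (7.93), the oxidase gene ERO1A (9.44) and CEBPB (9.53).

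**Figure D4:**
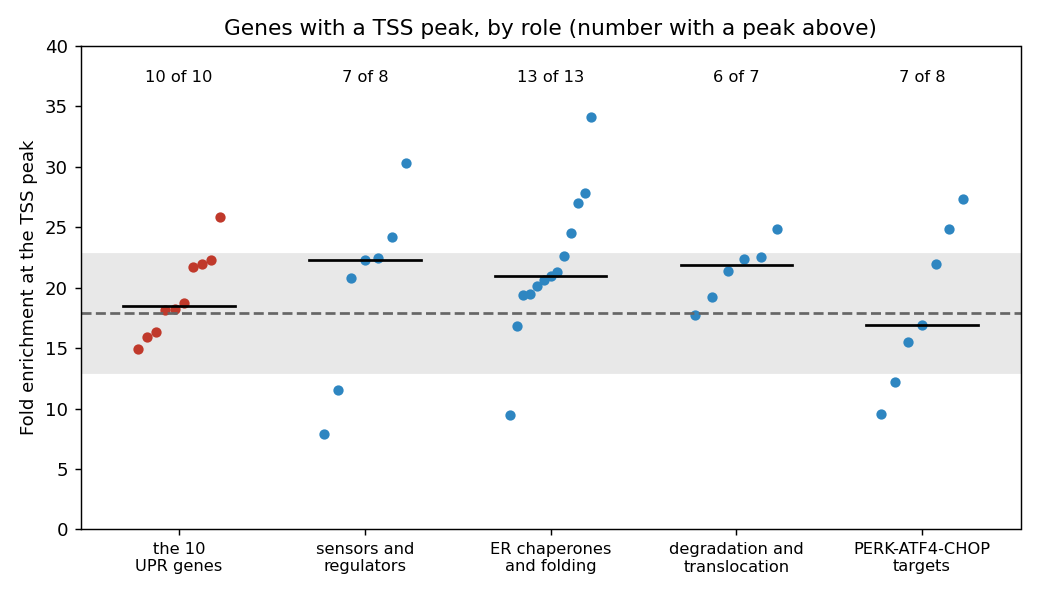
Points are the fold at the TSS peak of single genes, black lines medians, and the numbers above count genes with a TSS peak of all in the list. The grey band and dashed line are the quartiles and median of protein-coding genes. All 13 chaperone and folding genes have a peak, and the median of the PERK, ATF4 and CHOP targets, 16.9, is the lowest.

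The ER stress elements recurred among these genes. Exact ERSE letters were upstream of PDIA6, CANX and CRELD2 and exact ERSE-II letters upstream of HYOU1 and SDF2L1, so 5 of 36 genes had one and all 5 were chaperone or folding genes. As above, the ERSE is known from promoters of such genes. Of the 38 protein-coding genes with either element, 10 were thus among the 46 genes of both lists. All 10 had a TSS peak, but so did all 10 members and 33 of the 36 other genes, counted with or without an element. Of the 28 genes outside both lists 75% had one (exact binomial 95% interval 55.1 to 89.3). The share of all protein-coding genes, 61.5%, lay inside that interval. These genes are no random sample either, so the interval allows no inference about the element.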

How the data were processed

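Bulk ATAC-seq peaks of 1 HepG2 library (0.1% FA, cryopreserved) were analysed, and the other 7 libraries and the single-cell data were not analysed here. Per its methods, the study used cutadapt for trimming, Bowtie2 for mapping to GRCh38, samtools to drop PCR duplicates and MACS2 at standard parameters to call peaks from this library by itself. Of the values the authors deposited per peak, the ratio is the fold of the summit over its local background, and the −log10 p and q describe that same position. No source used here gives the MACS2 version or says whether read ends were shifted to the Tn5 cut, which would displace summits slightly. Peak names refer to a filtered alignment called short, whose fragment limits no source used here gives. The depth of the library is unknown from a peak list.

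Peaks were placed on GENCODE 44 genes by their summit (gene body or 20 kb) or by overlap with 1000 bp to either side of the canonical TSS. A gene with more than 1 TSS peak was given its highest fold. Fragments at the summit, n, and the local background, b, were solved, assuming the caller's pseudocount of 1, from fold = (n + 1)/(b + 1) and the Poisson tail p with scipy 1.17.1, and n was kept where whole within 0.01 (50 of 50 member peaks and 99.6% of protein-coding TSS peaks). The 7 motifs were searched as exact letters on both strands in the hg38 sequence. The computations were tested on simulated data. No test between samples was possible with 1 library, so lists are given by counts and medians beside all protein-coding genes. The alternatives were other TSS windows and distances, stricter peak thresholds, any annotated transcript start and other motif windows. All 10 members are described. Of the other genes, those without a TSS peak, the 4 highest and the 3 lowest in fold, and genes at or around a member's peaks are named, except for 1 result that is not reported here. ER stress element carriers and the 5 added motifs were named after their values were seen. The members and lists were chosen with earlier results of these data known.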

Additional observations from a re-analysis of the deposited data

How the results depend on the processing

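All 10 genes kept a TSS peak, and their median fold stayed at 18.5, under each alternative run for them. Protein-coding genes with a TSS peak came to 59.2% with 500 bp, 65.6% with 2500 bp and 66.9% with the start of any annotated transcript, where ERN2 gained a peak and the other genes of the response came to 34 of 36. The number of peaks near the 10 genes was 26 within 5 kb, 94 within 50 kb, 12 in the gene bodies alone and 30 at a −log10 q of at least 20. Members with an ER stress element were 3 within 100 bp of the TSS summit (XBP1, HERPUD1 and CALR). Among the 12313 coding genes searched there, 23 or 0.187% had one. With 1 mismatch allowed in the ERSE, 7 members had either element. The share of all coding genes then rose as well, from 0.190% to 1.95%. With peaks at starts of other genes left out, 36 peaks remained. Ranked on their own chromosomes, the members' folds were above a median of 60.8% of protein-coding TSS peaks, against 53.0% over all chromosomes. No paired analysis was possible because 1 library was analysed. Without a replicate, the spread between libraries is unknown, the intervals cover counting error only, and a gene without a peak was not detected at this depth.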
